A study of Mus musculus with 10 samples.

Results

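The genes described here are 50 genes of mitosis and the G2/M transition, taken by their names from a table of 56748 mouse genes. They were read in 10 bulk poly(A) RNA libraries from 3xR, a line of mouse embryonic stem cells, at day 14, each made from cells isolated for 1 of the line's fluorescent reporters. A first group of 4 libraries held Col2a1-eGFP+ cells from a DMSO condition (replicates 1, 3, 4 and 5). A second group of 3 libraries held Prg4-tdTomato+ cells from the same vehicle (replicates 1, 3 and 5). The third group, of 3 libraries, held Prg4-tdTomato+ cells from a condition labelled Fsk (replicates 1, 4 and 5), an abbreviation that is commonly used for forskolin, an activator of adenylyl cyclase, and that the labels do not spell out. All groups come from 1 engineered line, the labels state neither the dose nor the length of treatment, and they do not say whether each library had its own culture, so a p-value reflects the spread among these libraries, which may be technical.

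A dividing cell copies its chromosomes in S phase, passes through G2 and enters mitosis when cyclin B and the kinase CDK1 become active. Kinetochores built on centromeres then tie each chromosome to the spindle, the spindle checkpoint holds anaphase until every kinetochore is attached, and the anaphase-promoting complex with CDC20 marks securin and cyclin B for destruction so that sister chromatids part and the cell divides. Most genes for these steps are silent in resting cells and are switched on together late in the cycle, partly through a promoter element called the cell cycle genes homology region (CHR), which the DREAM and MuvB-FOXM1-MYBL2 complexes bind, often beside CCAAT boxes bound by NF-Y.

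The libraries held 15561217 to 20391156 reads in Col2a1-eGFP+ cells, 18023599 to 20408696 in Prg4-tdTomato+ DMSO cells and 15355459 to 18988782 in Prg4-tdTomato+ Fsk cells. All 50 genes had reads in every library, and all 50 passed the filter on low counts, also when it was applied to the 7 DMSO libraries alone. Ribosomal RNA genes took from 0.0451% to 5.22% of the reads, with a wide range inside each group. Col2a1, the cartilage collagen behind the eGFP reporter, averaged 1681 ± 995 CPM (reads set on a common library size; SD, n = 4) in the eGFP+ libraries, 220 ± 157 (n = 3) in tdTomato+ DMSO and 33.6 ± 17.8 (n = 3) in tdTomato+ Fsk. Prg4, which names the tdTomato reporter, had at most 2.55 CPM in any library, so its RNA does not mark the tdTomato+ libraries. In bulk RNA, fewer dividing cells and less RNA per dividing cell cannot be told apart.

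The promoter windows of the genes were read because members that move together can be set beside the DNA letters they share. RefSeq windows (GRCm38.p6, 250 bases before to 50 after the start) matched 40 of the 50 genes, in 43 windows. TTTGAA, the core of the CHR, was searched on both strands and stood in 31 of the 43 windows (72.1%), against 17.9% of all 32851 windows and 11.9% of the windows of tested genes. CCAAT, also searched on both strands, stood in 76.7% of the members' windows against 37.4% of all windows, and 65.1% held both motifs against 6.95% of all. TTTAAA, a variant of the same element, stood in 20.9% against 13.2%, and no TTTGAA in a member window overlapped a CCAAT. A match of letters is a description and not a measured site.

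The 6 windows shown were cut to 150 bases before and 30 bases after the start and were chosen because the results turn on these genes: the pair that passed the test, a cyclin with several CCAAT boxes, the gene with the largest fold change, and Bub3 and Pttg1, whose groups overlapped. Capitals mark the 3 motifs on either strand, so that a motif on the opposite strand appears as its reverse complement, and each sequence runs 5′ to 3′ on the strand of the gene.
Cdk1 (chr10:69352883-69353062, minus strand, GRCm38.p6): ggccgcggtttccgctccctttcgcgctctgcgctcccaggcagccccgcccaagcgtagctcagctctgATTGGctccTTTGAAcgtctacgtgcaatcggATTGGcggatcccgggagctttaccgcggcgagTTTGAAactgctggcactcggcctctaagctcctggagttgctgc
Cenpa (chr5:30666736-30666915, plus strand, GRCm38.p6): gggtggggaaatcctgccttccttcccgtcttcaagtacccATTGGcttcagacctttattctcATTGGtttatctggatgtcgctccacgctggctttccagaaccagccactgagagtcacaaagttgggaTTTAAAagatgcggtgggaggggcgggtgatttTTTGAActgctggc
Ccnb2 (chr9:70421525-70421704, minus strand, GRCm38.p6): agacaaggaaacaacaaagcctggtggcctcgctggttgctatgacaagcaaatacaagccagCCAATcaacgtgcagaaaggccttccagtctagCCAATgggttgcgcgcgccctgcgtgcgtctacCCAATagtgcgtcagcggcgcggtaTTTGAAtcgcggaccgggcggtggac
Nuf2 (chr1:169531435-169531614, minus strand, GRCm38.p6): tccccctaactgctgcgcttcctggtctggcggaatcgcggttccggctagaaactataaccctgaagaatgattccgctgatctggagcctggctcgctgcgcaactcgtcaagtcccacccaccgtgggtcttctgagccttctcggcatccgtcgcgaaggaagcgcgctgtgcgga
Bub3 (chr7:131560220-131560399, plus strand, GRCm38.p6): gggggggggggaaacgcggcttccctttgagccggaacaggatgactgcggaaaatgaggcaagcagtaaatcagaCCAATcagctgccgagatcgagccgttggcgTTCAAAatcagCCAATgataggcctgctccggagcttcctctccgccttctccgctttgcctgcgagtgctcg
Pttg1 (chr11:43425952-43426131, minus strand, GRCm38.p6): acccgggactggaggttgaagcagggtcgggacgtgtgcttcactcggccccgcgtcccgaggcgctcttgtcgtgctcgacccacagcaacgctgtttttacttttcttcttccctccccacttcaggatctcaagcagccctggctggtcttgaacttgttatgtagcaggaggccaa
As cut, the Cdk1 window held TTTGAA in 2 places and that of Cenpa held TTTGAA and TTTAAA once each. Both also held CCAAT boxes, which in Cenpa lie well upstream, at -109 and -86 against 17 for TTTGAA. Ccnb2 as cut held CCAAT in 3 places and 1 TTTGAA, and its uncut window held another TTTGAA at -167. Nuf2 and Pttg1, which stand at opposite ends of the fold changes, held none of the 3 motifs in their windows, and Bub3 held TTTGAA and CCAAT although its level differed little between the groups. The 28 genes with TTTGAA had log2 fold changes from 0.49 to 3.83 (median 2.73) for Fsk against DMSO in tdTomato+ cells, and the 12 matched genes without it had values from -0.17 to 3.90 (median 2.41), so both sets spanned nearly the same range.

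Across the libraries the 50 genes moved largely as a block, as the heat map by library shows. The mean log2 CPM over the 50 genes was 1.17, 2.37 and 2.46 in tdTomato+ DMSO replicates 1, 3 and 5. It was 5.26, 3.59 and 4.79 in tdTomato+ Fsk replicates 1, 4 and 5, each above every DMSO library of the same reporter. In the eGFP+ libraries it was 1.25, 2.33, 1.77 and 3.74 in replicates 1, 3, 4 and 5, so that eGFP+ replicate 5 lay above the lowest Fsk library. Set against the mean of the tdTomato+ DMSO libraries, the 3 Fsk libraries lay 9.59, 3.02 and 6.90 times as high. Replicate 1 was the highest of all 10 libraries for 38 genes, while Fsk replicate 4 was the lowest Fsk library for 48 genes, with a median ratio of Fsk replicate 1 to Fsk replicate 4 of 3.23. Within the eGFP+ group, replicate 5 was the highest library for 44 genes, by a median factor of 2.69 over the next in those genes. Group means of this index were 2.27 ± 1.07 (SD, n = 4), 1.999 ± 0.72 (n = 3) and 4.55 ± 0.86 (n = 3).

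**Figure D1:**
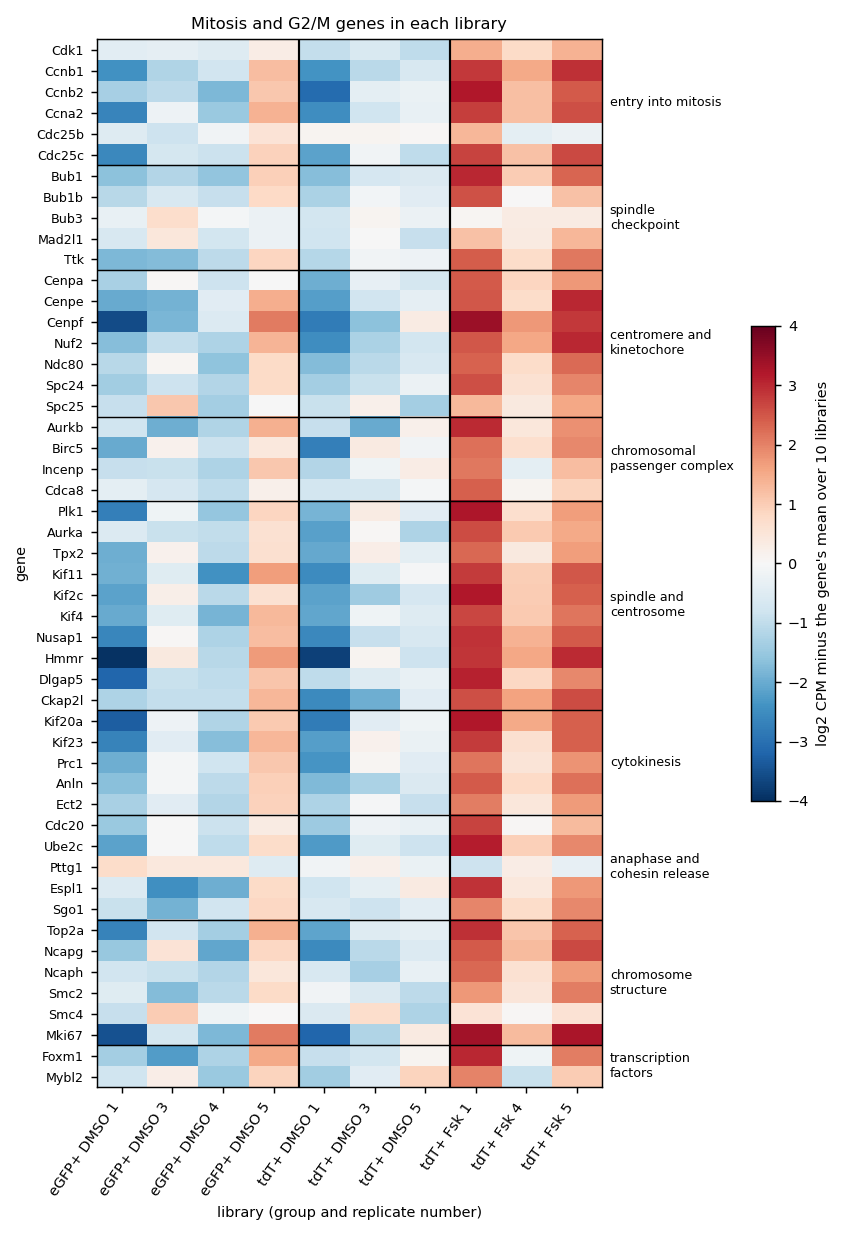
Heat map of the 50 genes (rows, grouped by role) in the 10 libraries (columns); colour is log2 CPM minus the gene's own mean over the 10 libraries. The 3 Fsk columns are red for nearly every gene, palest in replicate 4, and eGFP+ replicate 5 is the reddest of the DMSO columns.

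The first comparison set Fsk against DMSO within Prg4-tdTomato+ cells, and asks how these genes stood under the treatment within 1 reporter. Cdk1, the kinase that drives entry into mitosis, and Cenpa, the histone that marks centromeres, rose under Fsk, and no member fell. Cdk1 went from 21.5 ± 3.54 CPM (SD, n = 3) in DMSO to 91.5 ± 22.1 (n = 3) in Fsk, and Cenpa from 10.1 ± 5.07 to 65.3 ± 33.9. The log2 fold change was positive for 49 of the 50 genes, against 48.3% of the 16169 genes tested, and its median over the 50 was 2.71, against -0.03 over all genes tested. All 3 Fsk libraries stood above all 3 DMSO libraries for 43 of the 50 genes, against 9.01% of all genes tested. The exceptions were Bub3, Cdc25b, Foxm1, Incenp, Mybl2, Pttg1 and Smc4.

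By edgeR's quasi-likelihood test with Benjamini-Hochberg adjustment over all genes, 2 of the 50 genes were past 0.05 and higher, where 0.297% of all genes tested were called higher and 0.272% lower. An unadjusted p below 0.05 was reached, in the higher direction, by 45 of the 50, against 5% of all genes. A fold change of at least 4 (log2 of 2) was estimated for 41 of the 50, against 2.59% of all genes, so most of the large estimates did not pass the adjusted threshold. The count of called members rested on single libraries: it was 0 without tdTomato+ DMSO replicate 1 or 5 or without Fsk replicate 1 or 5, and 1 without tdTomato+ DMSO replicate 3, Fsk replicate 4 or eGFP+ replicate 4. It reached 8 when eGFP+ replicate 1 was left out, where 0.702% of all genes in that fit were called in either direction. It reached 18, against 1.1%, without eGFP+ replicate 5, a library that enters through the shared estimate of the spread. The count was 34 by DESeq2, against 3.52% of all genes in that fit, and 4 by limma-voom, against 0.458%. It was 26 when only the 2 groups were fitted, against 1.72%, and 39 without the filter on low counts, against 1.21%. In every one of these fits the log2 fold change was positive for the same number of genes, 49. Between libraries of the same replicate number, Fsk was higher for 49 of 50 genes at number 1 (median log2 difference 4.37) and for 48 of 50 at number 5 (median 2.50).

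**Figure D2:**
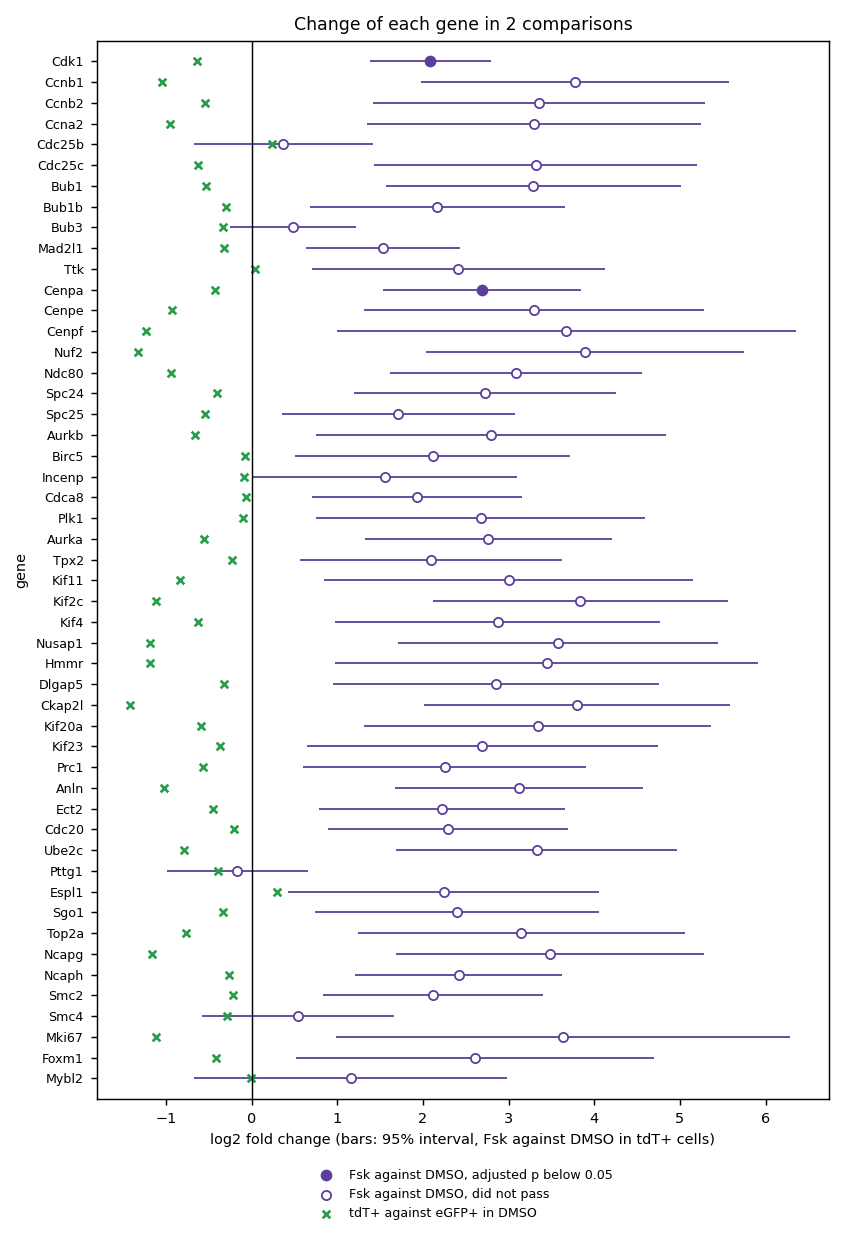
Log2 fold changes of the 50 genes: circles with bars give Fsk against DMSO in tdTomato+ cells with the 95% interval from edgeR, filled where the adjusted p was below 0.05 (Cdk1 and Cenpa), and crosses give tdTomato+ against eGFP+ in DMSO. Nearly all circles lie right of 0 and nearly all crosses left of it, with Cdc25b, Bub3, Pttg1, Smc4 and Mybl2 having intervals that include 0 in the first comparison.

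Values by library are given in the order of replicates 1, 3 and 5 for tdTomato+ DMSO and 1, 4 and 5 for Fsk. Among the 6 genes for entry into mitosis, 1 passed the test and 5 had Fsk libraries wholly above the DMSO libraries, with a median log2 fold change of 3.30. Cdk1 (ENSMUSG00000019942) stood at 19.9, 25.6 and 19.2 CPM in tdTomato+ DMSO replicates 1, 3 and 5 and at 107, 66.2 and 101 CPM in Fsk replicates 1, 4 and 5. The groups did not overlap, and the lowest Fsk library lay far above the highest DMSO library. Its log2 fold change was 2.09 (SE 0.33, adjusted p = 0.0122 by edgeR). Leaving out 1 library took that adjusted p to between 0.0073 and 0.0676. It lost the call without tdTomato+ DMSO replicate 1 (0.0552) or 5 (0.0533) and without Fsk replicate 1 (0.0576) or 5 (0.0676).

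Ccnb1, which encodes cyclin B1, the partner that activates CDK1, stood at 1.88, 4.81 and 6.67 CPM in DMSO and at 74.0, 29.7 and 80.1 CPM in Fsk. The Fsk libraries were all above the DMSO libraries, yet the log2 fold change of 3.78 (SE 0.83) had an adjusted p of 0.068 by edgeR. The other cyclins, Ccnb2 and Ccna2, and the activating phosphatase Cdc25c had log2 fold changes of 3.36, 3.29 and 3.31 and did not pass. Cdc25b, a phosphatase of the same family, differed from them: it had 16.6, 16.9 and 16.1 CPM in DMSO and 39.1, 11.9 and 13.0 CPM in Fsk. Only Fsk replicate 1 lay above the DMSO libraries, and the log2 fold change of 0.37 (SE 0.48) turned to -0.40 without it.

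**Figure D3:**
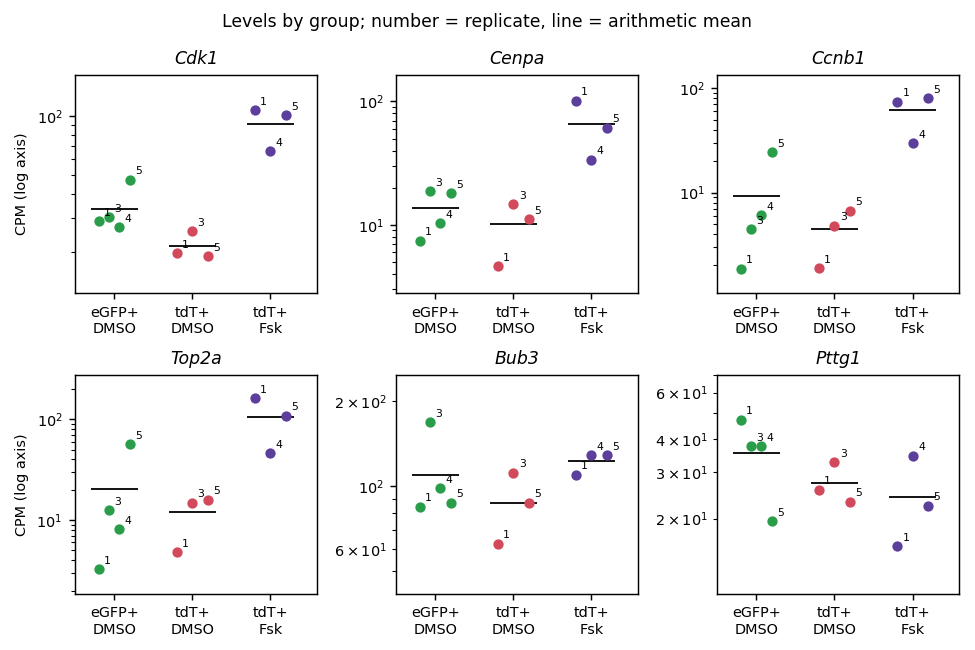
CPM of 6 genes in each library on log axes, with points numbered by replicate and lines at the group means. Cdk1, Cenpa, Ccnb1 and Top2a have their 3 Fsk points above all tdTomato+ DMSO points, while Bub3 and Pttg1 overlap.

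None of the 5 spindle checkpoint genes passed the test, and 4 had Fsk libraries wholly above DMSO. Bub3, which carries checkpoint proteins to kinetochores and also takes part in RNA splicing, had 62.5, 111 and 87.3 CPM in DMSO and 110, 129 and 128 CPM in Fsk. The groups overlapped through DMSO replicate 3, and the log2 fold change was 0.49 (SE 0.34). Mad2l1, whose protein binds CDC20 to block anaphase, had 12.4, 21.5 and 11.3 CPM in DMSO and 48.7, 27.8 and 54.2 CPM in Fsk, a log2 fold change of 1.53 (SE 0.42). The kinases Bub1 and Ttk and the pseudokinase Bub1b had log2 fold changes of 3.29, 2.41 and 2.17.

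All 7 centromere and kinetochore genes had Fsk libraries above DMSO libraries, with a median log2 fold change of 3.09, and 1 passed. Cenpa (ENSMUSG00000029177) stood at 4.64, 14.6 and 11.1 CPM in DMSO replicates 1, 3 and 5 and at 101, 33.6 and 61.2 CPM in Fsk replicates 1, 4 and 5. The groups did not overlap. Its log2 fold change was 2.69 (SE 0.53, adjusted p = 0.0401 by edgeR), and leaving out 1 library took that p to between 0.0312 and 0.163. The call was lost without any 1 tdTomato+ library (0.113, 0.086 and 0.102 without DMSO replicates 1, 3 and 5, and 0.163, 0.0505 and 0.118 without Fsk replicates 1, 4 and 5) and without eGFP+ replicate 4 (0.0664).

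Cenpe, a kinetochore motor, had 1.62, 4.60 and 6.11 CPM in DMSO and 44.2, 13.0 and 64.5 CPM in Fsk, and its log2 fold change of 3.30 (SE 0.92) did not pass. The NDC80 complex, which grips microtubules, is encoded by Ndc80, Nuf2, Spc24 and Spc25. Their log2 fold changes were 3.09, 3.90, 2.72 and 1.71, and Nuf2 had the highest estimate of all 50 genes. Cenpf, a large kinetochore protein of late G2 and mitosis, had 3.67 (SE 1.24), the largest SE of the 50.

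The chromosomal passenger complex corrects faulty attachments through the kinase encoded by Aurkb, held in place by the products of Incenp, Birc5 and Cdca8. None of the 4 passed, and their median log2 fold change was 2.02. Birc5, which encodes survivin, had 1.41, 12.7 and 9.02 CPM in DMSO and 46.4, 15.9 and 38.1 CPM in Fsk. Incenp, the scaffold, had 3.80, 7.66 and 10.7 CPM in DMSO and 37.9, 6.63 and 20.7 CPM in Fsk, with Fsk replicate 4 inside the DMSO range. Their log2 fold changes were 2.11 (SE 0.74) and 1.55 (SE 0.72), and those of Aurkb and Cdca8 were 2.80 and 1.93.

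All 10 spindle and centrosome genes had Fsk libraries wholly above DMSO, with log2 fold changes from 2.09 to 3.83 and none past the adjusted threshold. Tpx2, which activates Aurora A on the spindle, had 4.01, 20.3 and 12.9 CPM in DMSO and 82.7, 22.4 and 54.1 CPM in Fsk. Its lowest Fsk library lay only just above its highest DMSO library. Nusap1, a microtubule-binding protein of the spindle, had 0.990, 3.36 and 4.15 CPM in DMSO and 48.9, 17.1 and 36.0 CPM in Fsk, a log2 fold change of 3.58 (SE 0.86). The mitotic kinases Plk1 and Aurka had 2.67 and 2.76, and the motors Kif11, Kif2c and Kif4 had 3.00, 3.83 and 2.87. The spindle proteins Hmmr, Dlgap5 and Ckap2l had 3.44, 2.86 and 3.80.

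The 5 cytokinesis genes also separated the libraries completely, with a median log2 fold change of 2.69 and none past the threshold. Anln, which encodes the contractile ring scaffold anillin, had 3.13, 4.40 and 7.19 CPM in DMSO and 60.0, 18.9 and 49.6 CPM in Fsk. Its log2 fold change was 3.12 (SE 0.67). Kif20a, a motor of the central spindle, had 0.730, 4.14 and 5.11 CPM in DMSO and 53.8, 16.6 and 30.9 CPM in Fsk. Its log2 fold change was 3.34 (SE 0.94), and those of Kif23, Prc1 and Ect2, which build the midzone and place the furrow, were 2.69, 2.25 and 2.22.

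The genes of anaphase and cohesin release split. Cdc20, the activator of the anaphase-promoting complex, had 5.79, 14.1 and 13.1 CPM in DMSO and 106, 16.8 and 39.1 CPM in Fsk, with Fsk replicate 4 close to the DMSO range. Pttg1, which encodes securin, the inhibitor that CDC20 targets, had 25.7, 32.6 and 23.2 CPM in DMSO and 15.7, 34.6 and 22.4 CPM in Fsk. The Pttg1 groups overlapped and its log2 fold change was -0.17 (SE 0.38), or 0.08 without Fsk replicate 1. Cdc20 had 2.29 (SE 0.65), the ubiquitin-conjugating enzyme Ube2c 3.33, the separase gene Espl1 2.24 and the cohesin protector Sgo1 2.40, none past the threshold.

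Within chromosome structure, 5 of 6 genes had Fsk libraries above DMSO and none passed. Top2a, the topoisomerase that untangles sister chromatids, had 4.79, 14.9 and 16.0 CPM in DMSO and 162, 46.3 and 108 CPM in Fsk, a log2 fold change of 3.15 (SE 0.88). Smc4, a core subunit of condensin, had 42.6, 104 and 27.0 CPM in DMSO and 92.7, 66.0 and 94.1 CPM in Fsk. The Smc4 groups overlapped, with a log2 fold change of 0.54 (SE 0.52), while its partner Smc2 had 2.12 (SE 0.60) and the condensin I subunits Ncapg and Ncaph had 3.49 and 2.42. Mki67, the proliferation marker that coats mitotic chromosomes, had a log2 fold change of 3.64 (SE 1.23).

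The transcription factor genes that act on this gene set did not separate the groups. Foxm1 had 2.29, 2.64 and 4.79 CPM in DMSO and 37.0, 3.94 and 18.6 CPM in Fsk, and Mybl2 had 0.834, 1.71 and 4.51 CPM in DMSO and 9.70, 1.24 and 4.90 CPM in Fsk. In both, Fsk replicate 4 lay within the DMSO range. Their log2 fold changes were 2.61 (SE 0.97) and 1.16 (SE 0.85). The plot of role groups shows the same drop at Fsk replicate 4, where the mean of these factors was 1.22 log2 CPM against 0.59 to 2.25 in tdTomato+ DMSO, while each of the other role means there lay above its tdTomato+ DMSO values.

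**Figure D4:**
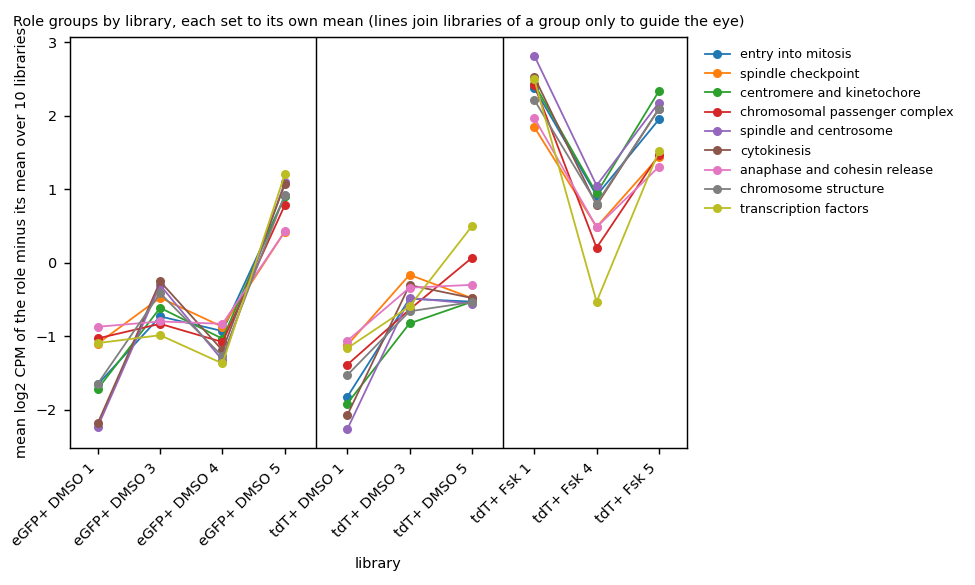
Mean log2 CPM of each of the 9 role groups in each library, each set to its own mean over the 10 libraries; lines join libraries of 1 group only as a guide. Every role is highest in Fsk replicate 1, and in Fsk replicate 4 the transcription factors alone lie within the tdTomato+ DMSO range.

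The second comparison set the reporters against each other in DMSO, where no member passed the test in either direction. The groups overlapped for 49 of the 50, where 1.6% of all genes tested were wholly higher in tdTomato+ and 1.15% wholly lower. edgeR called 0 of 16169 genes here (0% in each direction, smallest adjusted p 0.339), and 0 members reached an unadjusted p below 0.05, against 0.68% of all genes higher and 0.686% lower. DESeq2 called 13 genes and limma-voom 0, no member among them. The same-numbered libraries of these groups deviate together, and with the replicate number as a block edgeR called 14 genes, again with 0 members. The log2 fold change of tdTomato+ against eGFP+ was negative for 47 of the 50 genes, against 48.1% of all genes, with a median of -0.54 against 0.02. That direction rested on 1 library: without eGFP+ replicate 5 the median was 0.30 and 33 of 50 genes were positive.

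Between libraries of the same number, tdTomato+ was lower than eGFP+ for 27 of 50 genes at number 1 (median log2 difference -0.07), for 26 at number 3 (median -0.0045) and for 48 at number 5 (median -1.37). Cdk1 alone did not overlap between the reporters, lower in tdTomato+. It stood at 28.9, 30.3, 27.0 and 47.3 CPM in eGFP+ replicates 1, 3, 4 and 5, and its log2 fold change was -0.63 (SE 0.30, adjusted p = 0.9995 by edgeR). Ccnb1 shows how far eGFP+ replicate 5 stood apart, at 24.3 CPM against 1.86, 4.46 and 6.07 in replicates 1, 3 and 4, and Top2a stood at 57.0 CPM against 3.24, 12.5 and 8.11. Pttg1 went the other way, with 19.6 CPM in eGFP+ replicate 5 against 47.3, 37.6 and 37.7.

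The third comparison set Fsk tdTomato+ cells against DMSO eGFP+ cells, which differ in both reporter and treatment. It shares its Fsk libraries with the first comparison and its eGFP+ libraries with the second, so its values are given beside theirs and not as further support. Cdk1 and Cenpa again passed, with log2 fold changes of 1.45 (SE 0.29, adjusted p = 0.0273 by edgeR) and 2.26 (SE 0.47, adjusted p = 0.0342), where 0.643% of all genes were called higher. Cenpa stood at 7.44, 18.8, 10.3 and 18.1 CPM in eGFP+ replicates 1, 3, 4 and 5. The median over the 50 was 2.23 against -0.01 over all genes, and 49 genes were positive, against 49.3% of all genes. Fsk libraries stood above all eGFP+ libraries for 16 of the 50, against 6.59% of all genes, and for 43 of the 50 without eGFP+ replicate 5, against 13.1%. Fsk replicate 4 and eGFP+ replicate 5 were close, with a median ratio of 0.909 over the 50 genes and Fsk replicate 4 the higher for 21 of them.

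Against eGFP+ cells, the called members numbered 35 without eGFP+ replicate 5, where 2.98% of all genes in that fit were called in either direction. They numbered 0 when any other eGFP+ library, or Fsk replicate 1 or 5, was left out. DESeq2 called 28, against 4.96% of all genes, and limma-voom 5, against 1.12%. An unadjusted p below 0.05 was reached by 44 of the 50, against 6.23% of all genes higher. Of the 6 genes that missed it, Bub3, Smc4, Pttg1 and Cdc25b had log2 fold changes of 0.16, 0.25, -0.55 and 0.60, and Spc25 and Mybl2 had 1.16 and 1.15.

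Other genes of the cell cycle place these values, and the plot of lists gives them for Fsk against DMSO in tdTomato+ cells. Of 78 further mitotic genes, 4 were called higher and 0 lower, against 0.297% and 0.272% of all genes tested. The median log2 fold change of the 78 was 1.65, and 75 were positive, against 48.3% of all genes. Those called were Knstrn, a spindle adaptor (3.45, adjusted p = 0.0118 by edgeR), Cks1b, a CDK-binding subunit (1.75, 0.0118), Cenph of the inner kinetochore (3.19, 0.0269) and the phosphatase gene Cdkn3 (3.37, 0.0401). Leaving out 1 library gave 1 to 11 calls in that list. It gave 1 without tdTomato+ DMSO replicate 1 or 3 or without Fsk replicate 1 or 5, against 0.128% to 0.226% of all genes. It gave 11 without eGFP+ replicate 5, against 1.1%. Of 41 genes for DNA replication and the G1/S step, 1 was called, against 0.297% of all genes called higher. It was Tyms, the thymidylate synthase gene (2.21, adjusted p = 0.0294 by edgeR), and the median of the list was 1.23. Tyms lost the call without any 1 tdTomato+ library or without eGFP+ replicate 4.

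Other lists of division genes and their regulators had medians nearer that of all genes, with single genes far from them. The 15 subunits of the anaphase-promoting complex had a median log2 fold change of 0.31 (from -0.35 to 1.16). The 12 cohesin genes had -0.02 (from -0.34 to 1.36 for Esco2). The 12 genes listed as inhibitors of mitotic entry and exit had 0.20 (from -0.91 to 2.26 for Fbxo5). The 22 MuvB, RB, E2F and NF-Y regulators had 0.14 (from -0.85 to 2.63 for E2f8). edgeR called 0 genes in each of these 4 lists. An unadjusted p below 0.05 was reached in the higher direction by 1, 1, 3 and 4 of their genes, against 5% of all genes tested. The counts of 1 among 15 and 1 among 12 are near that share. In the lower direction it was reached by 1 regulator, with no share over all genes given here. DESeq2 called Fbxo5 and Mastl higher among the inhibitors and 0 genes in the other lists, limma-voom called 0 in all 4, and the fit of only the 2 groups called Mastl. The 10 CDK inhibitors and D cyclins had a median of -0.18, with 0 called by edgeR and 0 by limma-voom. An unadjusted p below 0.05 by edgeR was reached by 1 higher, against 5% of all genes, and by 1 lower, with no share given here. DESeq2 called Cdkn2c higher and Cdkn1a lower. Cdkn1a, which encodes the CDK inhibitor p21, had 955, 1434 and 956 CPM in DMSO replicates 1, 3 and 5 and 460, 559 and 325 CPM in Fsk replicates 1, 4 and 5. The groups did not overlap, but the log2 fold change of -1.32 (SE 0.43) had an adjusted p of 0.233 by edgeR. Of the 10 genes, 2 had Fsk libraries wholly above DMSO and 1 wholly below, against 1457 and 1290 of the 16169 genes tested. Cdkn2a, another CDK inhibitor gene, went the other way, at 114, 57.7 and 22.4 CPM in DMSO and 206, 142 and 118 CPM in Fsk. Its log2 fold change was 1.26 (SE 0.71, adjusted p = 0.596 by edgeR).

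**Figure D5:**
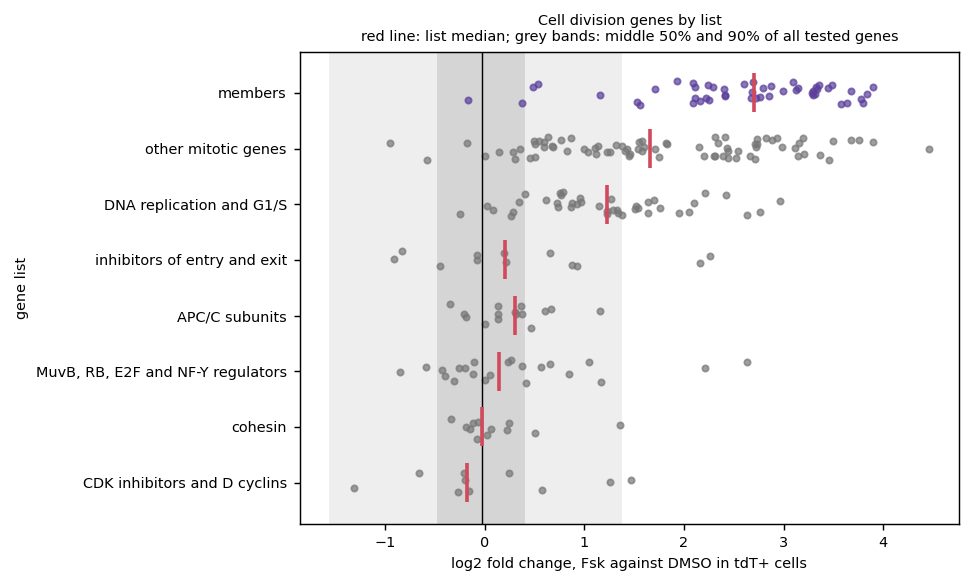
Log2 fold changes of Fsk against DMSO in tdTomato+ cells for single genes (points) in the 50 genes and 7 other cell cycle lists, with list medians as red lines and bands for the middle 50% (-0.47 to 0.39) and 90% (-1.56 to 1.37) of all tested genes. The 50 genes and the further mitotic genes reach furthest right. The cohesin median (-0.02) lies by that of all genes (-0.03), and the median of the CDK inhibitors and D cyclins (-0.18) lies below it.

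For comparison between genes, mean CPM was divided by annotated exon length in kilobases within each group. Pttg1, Bub3 and Smc4 were the highest in tdTomato+ DMSO, at 13.6, 12.4 and 11.1, and in eGFP+ cells, at 17.8, 15.6 and 13.6. In Fsk, Cdc20 was the highest at 28.9, then Ube2c at 20.9, Ccnb2 at 19.7, Cdk1 at 18.5 and Bub3 at 17.4. That order is of group means and was not read by library. Before division by length, Cdc20 had 106, 16.8 and 39.1 CPM in Fsk replicates 1, 4 and 5 (SD 46.5). Its exons also overlap Elovl1, which had more reads. Cenpf was the lowest in both DMSO groups, at 0.102 in tdTomato+ and 0.242 in eGFP+ cells, and Mybl2 was the lowest in Fsk at 1.14. Complexes were uneven in these units: within the NDC80 complex, Spc25 stood at 2.11 CPM per kilobase in tdTomato+ DMSO and 6.89 in Fsk, while Nuf2 stood at 0.203 and 3.05. Within condensin, Smc4 stood at 11.1 and 16.2, and Smc2 at 1.91 and 8.25. Cdc20 stood at 5.89 in tdTomato+ DMSO, and Pttg1 at 12.1 in Fsk.

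Markers of other cells and of cell stress were read beside the division genes. The summed level of 10 pluripotency genes was 78.1 to 159 CPM in tdTomato+ DMSO and 21.7 to 59.9 CPM in Fsk, led by Klf4. Only 2 of the 10 were tested, with log2 fold changes of -1.48 and, for Nanog, 0.04. Pou5f1 had at most 10 reads in any library. It had 0, 0 and 1 reads in tdTomato+ DMSO replicates 1, 3 and 5 and 1, 10 and 5 in Fsk replicates 1, 4 and 5. The blood and macrophage list of 8 genes, led by Cd68, summed to 33.7 to 117 CPM in DMSO and 8.62 to 20.8 CPM in Fsk. Adgre1, Hbb-bt, Spi1 and Gata1 were at 0 in all Fsk libraries. Hba-a1 and Hbb-bt were at 0 in all tdTomato+ DMSO libraries, and Adgre1, Hba-a1 and Gata1 in all eGFP+ libraries. Germ cell markers summed to at most 1.24 CPM in any library. The osteoblast list, led by Spp1, summed to 5030 to 38659 CPM in DMSO and 4918 to 10076 CPM in Fsk, ranges that overlap. All 6 of its tested genes had negative log2 fold changes (median -3.57, from -6.69 to -1.04). For 5 of the 6, all Fsk libraries lay below all DMSO libraries, against 1290 of the 16169 genes tested. Only the bone matrix gene Dmp1 was called lower (log2 fold change -4.30, adjusted p = 0.0118 by edgeR). Interferon response genes summed to 37.6 to 90.4 CPM in DMSO and 83.8 to 181 CPM in Fsk. All 10 tested genes had positive log2 fold changes (median 1.78), and 6 had Fsk libraries wholly above DMSO, against 9.01% of all genes tested. Of these 10, edgeR called 0 (4 higher at an unadjusted p below 0.05, against 5% of all genes) and limma-voom 0, while DESeq2 called Isg15 and Oasl2 higher. The 13 mitochondrially encoded genes had 12 positive log2 fold changes (median 0.70) with 0 called by edgeR, DESeq2 or limma-voom and 0 at an unadjusted p below 0.05, and their summed ranges overlapped, at 15258 to 49387 CPM in DMSO and 30966 to 54538 CPM in Fsk. The 8 heat shock genes had 0 called by edgeR or limma-voom and 3 lower at an unadjusted p below 0.05, with no share over all genes in that direction given here. DESeq2 called Hspa1a and Hspa1b lower, near-identical copies whose reads counting can split, and the log2 fold changes were -5.57 and -5.30. Hspa1b stood at 65.9, 218 and 11.7 CPM in DMSO and at 4.79, 0.956 and 1.78 CPM in Fsk. The part of these other genes in the result was not tested.

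Exons of 15 of the genes overlap another annotated gene (GENCODE M21), mostly on the other strand, and whether counting used the strand is not stated in the sources used here. Cdc20 overlaps Elovl1, Kif20a overlaps Cdc23, Kif4 overlaps Pdzd11, Ccna2 overlaps Exosc9 and Ncapg overlaps Lcorl, each with more reads than the member, so the values of these 5 are the less certain. Pseudogene copies took few reads, 96 in all libraries together for Ccnb1-ps and 69 for Ccnb2-ps.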

How the data were processed

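Per the labels, poly(A) RNA was extracted with Trizol. The authors deposited 1 table of raw read counts, 56748 genes by 10 libraries, and mm10 is the build in the submitters' processing notes. For the aligner, counter, annotation and strand setting: not given in the sources used here. Groups came from the sample titles. Genes were kept by filterByExpr (16169 tested), scaled by TMM, and fitted with edgeR 4.0.16 (R 4.3.3; glmQLFit, robust, group as the only term, all 10 libraries, 7 residual degrees of freedom, glmQLFTest). P-values were adjusted by Benjamini-Hochberg over all genes tested, with a threshold of 0.05. An SE is the log2 fold change divided by the square root of F. CPM uses TMM-scaled totals, and log2 CPM has a prior count of 2. Alternatives were RLE scaling, DESeq2 1.42.0, limma-voom (limma 3.58.1), other filters, only 2 groups, replicate blocks, no ribosomal RNA or mitochondrial genes, and leaving out each library. Scripts were tested on simulated data with the same dispersion for every gene, which does not tell how the test behaves at the spread of these libraries.

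The 50 genes and the other lists were chosen with earlier results of these data known. Values in every tdTomato+ library are given for members past the threshold, the 2 members of each role with the highest mean CPM, and Bub3, Incenp and Cdc25b. That mean was not divided by length, so it is a choice by read number only. Values in the eGFP+ libraries are given for only some of these genes. Other members, Cdkn1a, Cdkn2a, the list genes called by other tools alone and the genes of the shown promoters were named after their values were seen.

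Replicate numbers were checked for pairing by the correlation of deviations from group means. Between the DMSO groups, the 3 same-numbered pairs reached 0.492 to 0.649, each over 0.1, and other pairs at most 0.177, so the numbers pair these groups, from the data and not from the labels. No replicates agreed within sampling noise (lowest chi-square per degree of freedom 97.8).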

Additional observations from a re-analysis of the deposited data

Results flagged for a closer look

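Each of the 50 genes was screened for a library far from the rest of the eGFP+ group, the only group with 4 libraries. Incenp was flagged: eGFP+ replicate 5 had 18.6 CPM against 4.55, 4.67 and 3.64 CPM, with a gap of 0.8488 of the group's range on the log2 scale. Ckap2l was also flagged, at 9.03 CPM in the same library against 1.45, 1.80 and 1.77 CPM, with a gap of 0.8853. Chance flags about 1 in 20 groups, and 2 of 50 were flagged here, both high in the library that was the highest of its group for 44 of the 50 genes.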

How the results depend on the processing

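The median log2 fold change of the 50 genes kept its sign in every setting for Fsk against DMSO in tdTomato+ cells (2.20 to 3.11 when leaving out 1 library) and against eGFP+ cells (1.79 to 3.10), but not between the reporters in DMSO (-0.80 to 0.30). For Fsk against DMSO in tdTomato+ cells, leaving out 1 library gave 22 to 174 called genes and 0 to 18 called members. DESeq2 called 569 genes and 34 members, no filter 462 and 39, only the 2 groups 260 and 26, and limma-voom 74 and 4. Against eGFP+ cells, leaving out 1 library gave 51 to 469 genes and 0 to 35 members, DESeq2 802 and 28, no filter 800 and 37, and limma-voom 181 and 5. Between the reporters, DESeq2 called 13 genes and no filter 18, with 0 members in every setting.

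With a replicate block over all libraries, 14 genes were called between the reporters, 508 genes and 35 members for Fsk in tdTomato+ cells, and 820 genes and 38 members against eGFP+ cells. With the block on same-numbered libraries only, the pairing gave 68 genes between the reporters and 559 genes and 42 members for Fsk in tdTomato+ cells. It gave 3 members against eGFP+ cells, where 1.7% of all genes in that fit were called in either direction. Cdk1 and Cenpa lost the call there. Outside the DMSO groups the numbers are not shown to pair the libraries: the same-numbered pairs correlated at 0.109 and 0.403 within tdTomato+ cells, and from 0.0703 to 0.443 between Fsk and eGFP+ cells.

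Between the reporters, limma-voom turned Incenp to 0.13, Foxm1 to 0.26 and Mybl2 to 0.022, and the block on same-numbered libraries turned Foxm1 to 0.11. Leaving out 1 library gave log2 fold changes of -0.46 to 0.80 for Incenp, -0.81 to 1.17 for Foxm1, -0.90 to 0.53 for Mybl2, -0.64 to 0.41 for Birc5, -1.03 to 0.16 for Smc4, -1.47 to 0.11 for Ccnb1, -1.33 to 0.38 for Cenpe, -0.78 to 0.24 for Tpx2, -1.04 to 0.36 for Kif20a, -0.45 to 0.13 for Cdc20 and -1.12 to 0.59 for Top2a. For Fsk in tdTomato+ cells it gave -0.51 to 0.077 for Pttg1 and -0.40 to 0.67 for Cdc25b, and against eGFP+ cells -0.17 to 0.93 for Cdc25b. The cause of these shifts was not tested. Members with under 1 CPM in a library rest on few reads there.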
